A study of Homo sapiens with 20 samples.

Results

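The human β-globin cluster holds 5 globin genes, HBE1, HBG2, HBG1, HBD and HBB, side by side on the minus strand of chromosome 11. All CTCF peaks and all H3K4me3 and H3K27ac regions that touched hg19 chr11:5150000-5400000 were taken, a stretch of 250001 bp that runs from the olfactory receptor gene OR52A5, past the globin genes and their locus control region (LCR), into the OR51 olfactory receptor genes. Of 790168 peaks and regions in the 20 deposited lists, 31 fell in this interval: 22 CTCF peaks and 9 histone regions. The CTCF peaks merged into 5 of the 62820 CTCF sites found over all 12 CTCF lists.

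ChIP-seq was done in LNCaP, a prostate cancer line, and IMR90, a line of lung fibroblasts, neither of which is erythroid. Cells were taken 144 h after transfection with 20 nM of either a non-targeting control siRNA or a CTCF siRNA pool. For LNCaP the methods describe a repeat transfection midway, and for IMR90 they state none. LNCaP was profiled for CTCF, H3K4me3 and H3K27ac, while IMR90 was profiled for CTCF only, once with the standard protocol and once with a low-cell kit. Each of the 10 combinations had 2 libraries, duplicate ChIPs whose labels name no separate animals or donors, so every comparison covers the spread between these libraries only. CTCF lists held 19153 to 46364 peaks after control siRNA and 2021 to 19180 after CTCF siRNA, and no 2 lists were identical. Read depth is not part of the lists, so list lengths are given in its place. The study's notes list unequal read numbers, with fewer reads for LNCaP CTCF siRNA library 1 than for either LNCaP control library. In standard IMR90 the order was the other way, with more reads for both CTCF siRNA libraries than for either control library. The part of depth in a missing peak was not tested.

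The β-globin genes encode the β-like chains of haemoglobin and are switched in order of development, HBE1 in the embryo, HBG1 and HBG2 in the fetus, HBD and HBB in the adult. In red cell precursors the LCR, a row of DNase hypersensitive sites upstream of HBE1, drives whichever gene is active, and in other tissues the whole cluster is shut. CTCF, a zinc finger protein that holds chromatin loops together with cohesin and can insulate enhancers, is known to bind at HS5, the outermost site of the LCR, and at 3′HS1, beyond HBB on the other side. H3K4me3 marks active or poised gene starts, and H3K27ac marks active starts and enhancers.

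CTCF was called in at least 2 libraries at 3 places in the interval, one on either side of the globin genes and one among the OR51 genes. They are called the 3′ site, the 5′ site and the OR51 site below. Sequences around the match to the CTCF consensus motif nearest to each summit are shown because their strands give the direction of each site. They were read from hg19, 5′ to 3′ on the strand of the motif, with the bases that match the consensus in capitals and the mismatched bases of the motif in lower case.
3′ site, chr11:5226171-5226234, plus strand: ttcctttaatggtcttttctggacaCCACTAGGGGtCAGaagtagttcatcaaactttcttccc
5′ site, chr11:5312640-5312703, minus strand: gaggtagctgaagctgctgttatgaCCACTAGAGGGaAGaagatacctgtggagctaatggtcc
OR51 site, chr11:5391268-5391331, minus strand: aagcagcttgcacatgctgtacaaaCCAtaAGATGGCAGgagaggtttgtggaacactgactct

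The 3′ and 5′ sites each carried 1 match with 1 mismatch, centred 6.5 and 8.5 bp from the median control summit, and the OR51 site 1 match with 2 mismatches, centred 5.5 bp away. The 14-base consensus was searched on both strands within 100 bp of the summit. Over all control sites a match with up to 2 mismatches was found at 73.9% in LNCaP and 71.2% in IMR90, so its presence is the usual case. The motif of the 3′ site was on the plus strand and that of the 5′ site on the minus strand, so the pair pointed towards each other across all 5 globin genes, with 86484 bp between their summits. The OR51 motif, 78625 bp further on, was on the minus strand as well. All 50-base words inside these 3 merged sites occurred once in the genome as exact matches. This matters because the authors discarded standard-library reads that mapped to several places. Their mapping allowed mismatches, so near copies are not covered by this count.

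The 3′ site, chr11:5226000-5226429 when merged over libraries, lay 20498 bp beyond the 3′ end of HBB and 4284 bp from the start of OR51V1. Its summit was intergenic, while its edge overlapped an exon of the unnamed lncRNA ENSG00000224091, which begins at position 5226271. The 5′ site, chr11:5312422-5313050, lay 21505 bp upstream of the canonical start of HBE1, the side on which the LCR lies. Positions of the LCR's own sites were not among the data. Its edge reached into the olfactory receptor pseudogene OR51AB1P, and its summit lay in introns of long annotated HBE1 and HBG2 transcripts. The OR51 site, chr11:5391070-5391533, lay 13737 bp from the start of OR51M1, in introns of the same long transcripts and of OR51B5. The nearest CTCF sites outside the interval were 80736 bp from the 3′ site, on the OR52A5 side, and 10870 bp beyond the OR51 site.

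**Figure D1:**
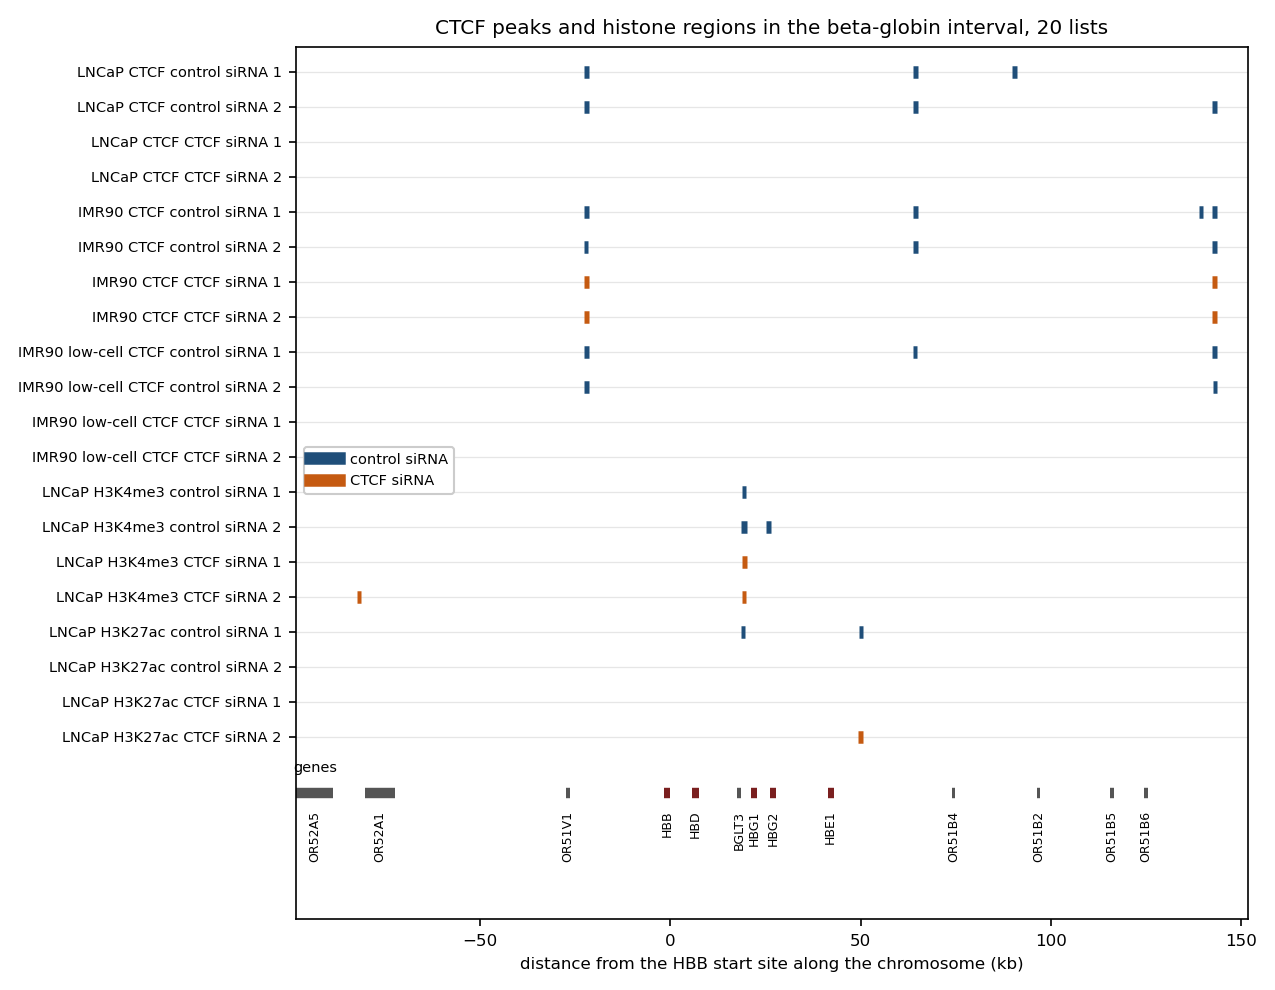
Peaks and regions of each of the 20 deposited lists (rows) along the interval, by distance in kb from the HBB start site, with genes at the bottom (globin genes in dark red). Short bars are widened to be visible. CTCF peaks lined up at 3 positions, and 1 H3K4me3 position was shared by its 4 libraries.

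With the standard protocol the 5′ site was the strongest of the 3 sites in both cell lines. MACS2 fold enrichment, the ratio of ChIP signal to local background at the peak, was 21.7 and 26.1 in the 2 LNCaP control libraries and 23.7 and 21.4 in the 2 standard IMR90 control libraries. In every one of these 4 lists it stood above 81.2% or more of the peaks. LNCaP and IMR90 control means of 23.9 ± 3.10 and 22.6 ± 1.60 (SD, n = 2 each) differed by less than the spread between replicates. With the low-cell kit the same line gave a peak of 6.17 in control library 1, below the 6.52 of the 3′ site and the 7.77 of the OR51 site in that library, and none in control library 2, although 89.7% of the standard IMR90 sites in the strongest quintile (the 20% with the highest mean control fold enrichment) were called in both low-cell control libraries.

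The 3′ site was weaker but was called in all 6 control libraries. Its fold enrichment was 7.42 and 10.2 in LNCaP, 10.2 and 8.08 in standard IMR90, and 6.52 and 4.70 with the low-cell kit. The means of the standard protocol, 8.81 ± 1.96 in LNCaP and 9.12 ± 1.47 in IMR90 (SD, n = 2 each), differed by less than the spread between replicates. In standard IMR90 it lay in quintile 2 of control sites (quintile 1 being the weakest by mean control fold enrichment), of which 27.8% were called in both low-cell control libraries, as this site was.

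Of the 3 recurrent sites, the OR51 site was the one whose control calls differed between the cell lines. It reached 11.9 and 12.6 in standard IMR90 and 7.77 and 6.86 with the low-cell kit, whereas LNCaP control library 1 had no peak there and library 2 had one of 5.82. The OR51 site belonged to quintile 3 in IMR90, of which 50.5% were called in both low-cell control libraries. A control site was defined by a peak in both control libraries, so the interval held 2 control sites in LNCaP, 3 in IMR90 and 2 with the low-cell kit. Of the 3 IMR90 control sites, 2 were LNCaP control sites too. Over the genome, 79.4% of sites found in both IMR90 control libraries were found in both LNCaP ones. All 250 kb tiles of the genome held a median of 2 control sites in LNCaP and in IMR90 and 1 with the low-cell kit. Tiles with at least 10 protein-coding gene starts, the interval having 13, held medians of 6, 7 and 4. Tiles with at least 5 olfactory receptor gene starts, the interval having 7, held medians of 1, 1 and 0, and 64.9%, 89.2% and 86.5% of them had no more control sites than the interval.

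**Figure D2:**
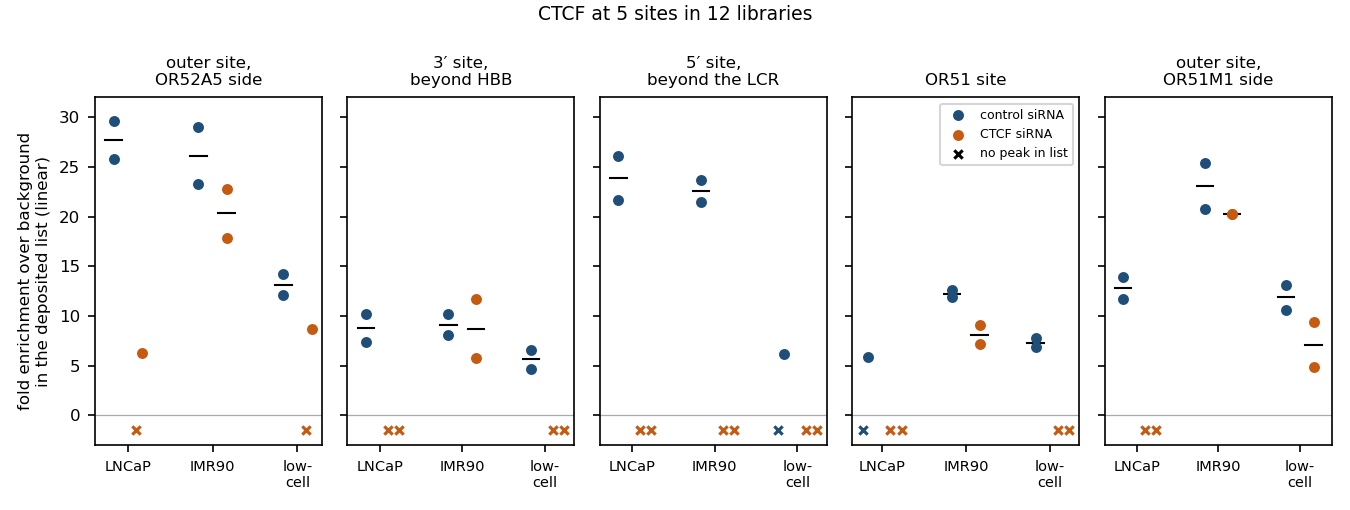
Fold enrichment (linear) of CTCF at the 3 recurrent sites of the interval and the nearest site outside it on each side, in each of 12 libraries. Points are libraries, bars are means of 2, and crosses below 0 are lists with no peak. The 5′ site had no peak in any of the 6 CTCF siRNA lists. Positions of the LCR were not among the data, so its mention in a panel title is a name only.

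The comparison of control with CTCF siRNA asked which of these sites kept CTCF after depletion. A site was persistent if both CTCF siRNA libraries of its experiment had a peak. In LNCaP none of the interval's 2 control sites persisted, and no peak at all was left in either CTCF siRNA list. The genome-wide share was 9.26% of 33413 sites, and by strength it was 1.26% for quintile 2, which held the 3′ site, and 29.5% for quintile 5, which held the 5′ site. With the low-cell kit, too, neither of 2 sites persisted. The share there was 10.9% of 16863 sites, with 3.32% in quintile 1, that of the 3′ site, and 4.71% in quintile 2, that of the OR51 site.

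In standard IMR90, 2 of 3 sites persisted, against 51.4% of 30523 sites genome-wide, and the site that did not was the strongest of them. At the 3′ site fold enrichment was 5.74 and 11.7 after CTCF siRNA, a mean of 8.72 ± 4.21 against 9.12 ± 1.47 in controls (SD, n = 2 each). CTCF siRNA library 2 was above both controls and library 1 below both, so the groups overlapped. At the OR51 site the values after CTCF siRNA were 7.17 and 9.04, both below the control values, with means of 8.10 ± 1.32 and 12.2 ± 0.47. The ratio of these means was 0.96 at the 3′ site and 0.66 at the OR51 site, beside a median of 0.73 (quartiles 0.53 and 0.99) over all 15693 persistent IMR90 sites. Of quintile 2, where the 3′ site lay, 19.6% persisted, and of quintile 3, where the OR51 site lay, 49.7%.

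The 5′ site was missing from both IMR90 CTCF siRNA lists. Among the 6106 IMR90 control sites of quintile 5, 97.5% persisted, and 22 sites, 0.36%, were missing from both lists, the 5′ site being one of them. This quintile began at a fold enrichment of 22.0, just under the mean of this site. Among the 3090 control sites within 10% of its fold enrichment, 92.4% persisted and 51 sites, 1.65%, were missing from both lists. When control sites were ranked by −log10 q instead, the 5′ site fell in quintile 4, in which 83.3% persisted and 4.80% were missing from both lists. Over the 24156 sites called in all 4 standard control libraries of both lines, 22.5% had no peak in any of the 4 standard CTCF siRNA lists, as at the 5′ site. The reason for its absence was not tested, and a missing peak shows that a site fell below the caller's threshold, not how far binding fell.

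**Figure D3:**
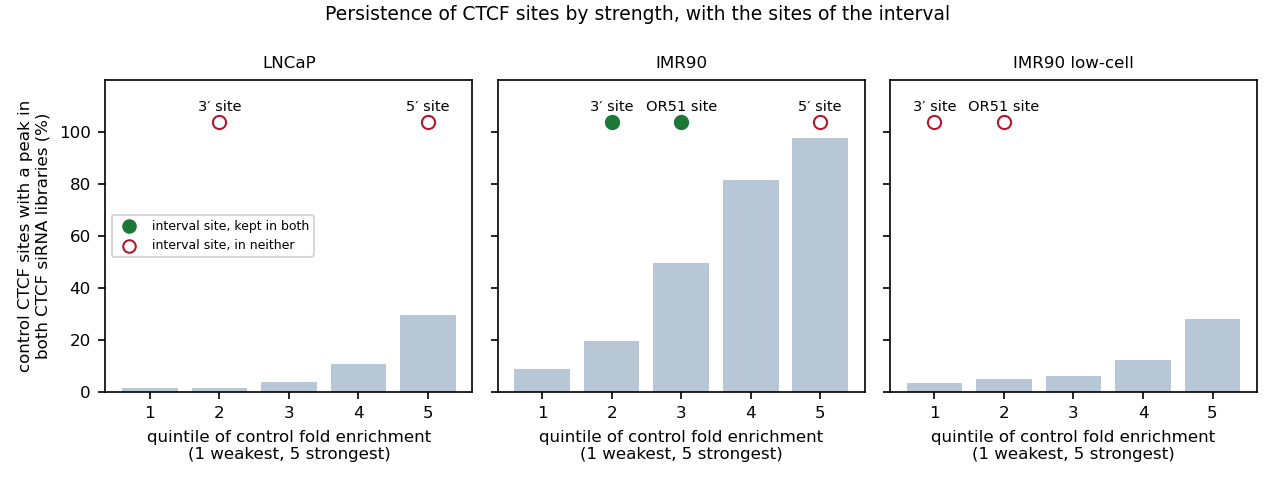
Share of control CTCF sites (%) that persisted, by quintile of mean control fold enrichment, in the 3 experiments. Circles above the bars place the interval's control sites in their quintile, filled where the site was kept and open where neither list had a peak. In IMR90 the 5′ site is open above quintile 5, of which 97.5% persisted.

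Over all 12 libraries, the 3′ site was called in 6 control and 2 CTCF siRNA libraries, the 5′ site in 5 and 0, and the OR51 site in 5 and 2. A two-sided exact permutation test of these calls, with labels permuted within each experiment, gave p = 0.056, 0.028 and 0.17, and Benjamini-Hochberg adjusted p = 0.19, 0.19 and 0.30 over 43427 sites. No site of the genome passed an adjusted p of 0.05 (0 called, 0%), 3440 sites had an unadjusted p below it, and the smallest p these 216 arrangements allow is 0.0093. With 1 library left out at a time 0 sites passed, and the number at an unadjusted p below 0.05 was 869 to 1389 without a control library, 9575 and 9728 without a standard IMR90 CTCF siRNA library and 3441 to 3543 otherwise. The exact permutation p of the 5′ site was 0.083 without any one of the LNCaP or standard IMR90 control libraries, 0.056 without low-cell control library 1 and 0.028 otherwise. For the 3′ site it ran from 0.028, without a standard IMR90 CTCF siRNA library, to 0.28, without a standard IMR90 control library, and for the OR51 site from 0.083 to 0.58 without the same libraries. With labels exchanged only between libraries of the same replicate number, 0 sites passed and 832 had an unadjusted p below 0.05. The smallest p of the exact permutation test was 0.031 with this exchange and 0.028 without a control library. An adjusted p below 0.05 would then need a large share of all sites at the smallest p, so 0 sites passing decides nothing there. The pattern of the 3′ site, all 6 control libraries and both standard IMR90 CTCF siRNA libraries but no other, was shared by 38.5% of 14798 sites found in all 6 controls.

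In all 3 CTCF experiments the peak lists after CTCF siRNA were shorter than the control lists. When all lists of an experiment were shortened to its shortest, the 3′ site was called in 0 control and 2 CTCF siRNA libraries, and the OR51 site in 2 and 2. The 5′ site was then called in 2 control libraries, both IMR90, and in 0 CTCF siRNA libraries, with p = 0.33 by the exact permutation test (adjusted p = 1.0). At this length no LNCaP or low-cell list held any of the 3 sites. The part of list length in these calls was not tested further.

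For comparison, the nearest site on each side of the interval was taken. The outer site on the OR52A5 side, chr11:5145238-5145740, was as strong as the 5′ site in standard-protocol controls. It had 25.8 and 29.7 in LNCaP and 29.0 and 23.2 in standard IMR90. With the low-cell kit it had 12.1 and 14.2 in controls, where the 5′ site had 6.17 in library 1 and no peak in library 2. This outer site kept 22.8 and 17.9 in the standard IMR90 CTCF siRNA libraries and was called in 4 of 6 CTCF siRNA libraries in all. The outer site on the OR51M1 side, chr11:5401920-5402439, had 25.4 and 20.8 in IMR90 controls and 20.3 in each IMR90 CTCF siRNA library. In LNCaP it had 11.7 and 14.0 in controls and no peak in either CTCF siRNA library, and with the low-cell kit 13.1 and 10.6 in controls and 9.35 and 4.89 after CTCF siRNA, so that it too was called in 4 of 6 CTCF siRNA libraries. Its motif was on the minus strand and that of the OR52A5 side on the plus strand, each with 1 mismatch. The exact permutation test gave p = 0.50 for the first and p = 0.33 for the second (adjusted p = 0.56 and 0.42), and the difference between them and the 5′ site was not tested.

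H3K4me3 and H3K27ac were profiled in LNCaP only, and no expression was measured in these libraries, so whether the cluster is silent could be examined by 2 marks in 1 line and not at all in IMR90. None of the 5 globin genes had an H3K4me3 or H3K27ac region within 1000 bp of its canonical start in any of the 8 histone libraries. Genome-wide, 66.6% of 20163 protein-coding genes had an H3K4me3 region there in at least 2 of 4 libraries, and 58.7% an H3K27ac region. The 7 olfactory receptor genes that start in the interval had none either, which was the usual state of their family, as 2.01% and 2.51% of 399 olfactory receptor genes carried the marks.

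Distances were taken from each globin start to the nearest region shared by at least 2 libraries. From HBB, the adult β chain gene, it was 18650 bp to H3K4me3 and 49450 bp to H3K27ac. HBD, which makes the minor adult δ chain, was 11238 and 42038 bp away. For HBG1 and HBG2, the fetal γ chain genes, H3K4me3 was 2687 and 7611 bp off and H3K27ac 26664 and 21740 bp off. HBE1, the embryonic gene, was 22775 bp from H3K4me3 and 6576 bp from H3K27ac. A limit applies to the γ genes: 47.5% of 50-base words in HBG1 and 47.6% in HBG2 occurred once in the genome, and 59.2% and 59.4% of those around their starts, because the 2 genes are near copies. At the starts of HBB, HBD and HBE1 at least 98.9% were unique as exact matches. Reads from the shared parts of the γ genes would have been discarded as ambiguous, so an absent region there says less than at the other genes.

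The interval held 1 H3K4me3 region shared by libraries, and it was called in all 4. It lay at chr11:5266951-5268400, between HBG1 and BGLT3, an erythroid lncRNA gene of the cluster whose start was 175 bp from the region's edge. The region measured 1100 and 1450 bp in the 2 control libraries and 600 and 800 bp in the CTCF siRNA libraries. Both control widths were thus above both CTCF siRNA widths. As the widths rank, 40.9% and 56.5% of regions in the control lists were narrower, and 5.05% and 8.77% of those in the CTCF siRNA lists. With 2 libraries a side the exact permutation test cannot go below p = 0.33, and widths are not scaled between libraries. The region had a GC content of 35.7% with 10 CpG dinucleotides, against 38.1% GC over the interval, and all of its 50-base words were unique. H3K27ac was called at this place, chr11:5266851-5267900, in LNCaP control library 1 only.

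The interval also held 1 H3K27ac region shared by libraries, at chr11:5297751-5298800, on the LCR side 6576 bp upstream of HBE1. It was called in control library 1, at 950 bp, and in CTCF siRNA library 2, at 1000 bp, and not in the other 2 libraries, so each treatment had 1 library with and 1 without it. It was 13622 bp from the edge of the 5′ CTCF site, and no H3K4me3 region overlapped it. Without either of its 2 libraries no H3K27ac region of the interval was shared by 2 libraries. The H3K27ac lists held 87146 and 99157 regions where it was called and 70099 and 94628 where it was not. None of the 3 recurrent CTCF sites overlapped a region of either mark, the 3′ site being 40522 bp and the OR51 site 41568 bp from the nearest H3K4me3 region.

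For its number of genes the interval was poor in marks. It held 13 protein-coding gene starts and 1 shared region of each mark, while the 271 tiles of 250 kb with at least 10 coding starts held a median of 11 H3K4me3 and 16 H3K27ac regions. Of those gene-rich tiles 6.27% had no more than 1 H3K4me3 region and 5.9% no more than 1 H3K27ac region. Over all 11469 tiles the shares were 28.9% and 20.7%, with medians of 3 and 6 regions. The closest counterparts were the 37 tiles with at least 5 olfactory receptor gene starts, of which 37.8% and 48.6% had no more than 1 region, so a count this low was common among them. Between the shared H3K4me3 region and the next one lay 608000 bp on the HBB side and 164700 bp on the OR51 side. For H3K27ac the 2 gaps were 449500 and 342300 bp. Next to the 250 kb window centred on HBB, the window on the HBB side had 10 coding starts and 0 regions of either mark. That on the OR51 side had 11 coding starts, 2 H3K4me3 regions and 0 H3K27ac regions.

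**Figure D4:**
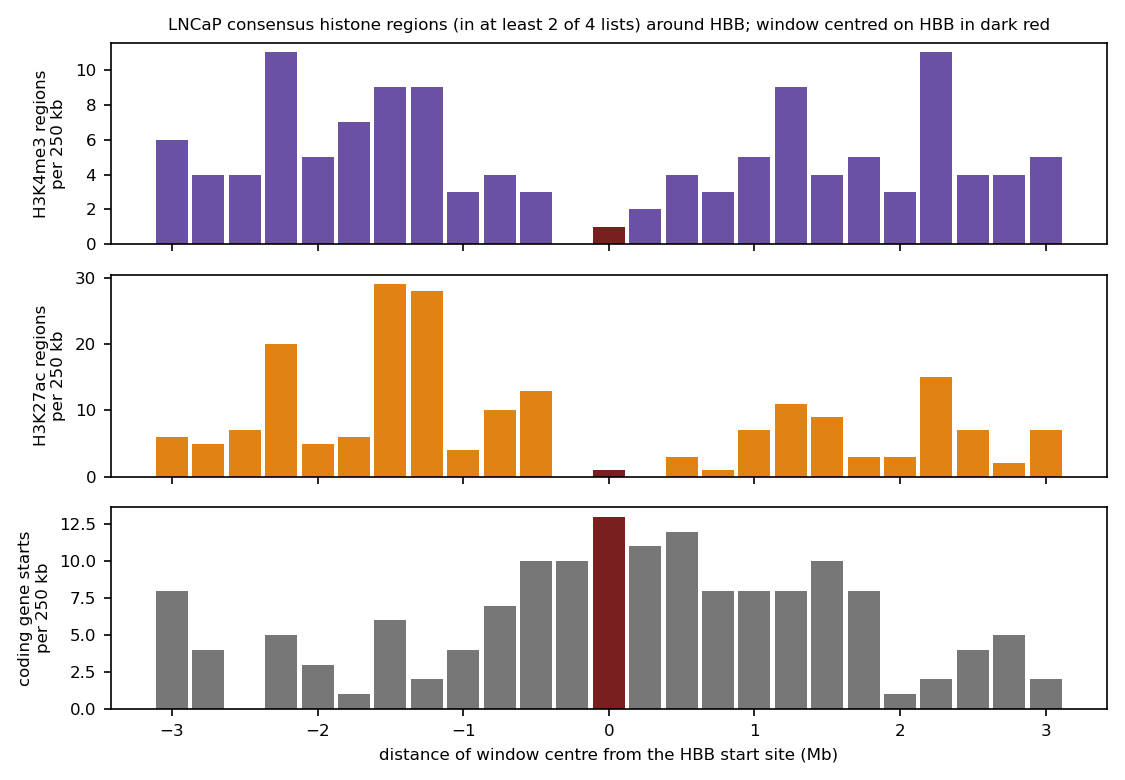
Regions of H3K4me3 and H3K27ac found in at least 2 of 4 LNCaP libraries, and protein-coding gene starts, per 250 kb window, by distance in Mb of the window's centre from the HBB start site. The window centred on HBB (dark red) had 13 gene starts and 1 region of each mark.

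Genes beyond the cluster placed these absences. All 8 genes chosen as expressed ones on the same arm, 11p15, had both marks at the start in all 8 libraries. Among them were RRM1, a ribonucleotide reductase subunit, STIM1, a calcium sensor of the endoplasmic reticulum, and ILK, an adhesion kinase. The 9 general housekeeping genes had H3K4me3 in all 4 libraries and H3K27ac in at least 8 of 9 genes per library. All 12 prostate luminal markers, such as KLK3, which encodes prostate-specific antigen, carried both marks in all 8 libraries, so the libraries labelled LNCaP had the marks of luminal cells. Of 10 fibroblast markers 3 had shared H3K4me3 and 1 had shared H3K27ac, COL1A1, a collagen gene, at the canonical start. Over the starts of all transcripts 4 had H3K4me3 and 5 had H3K27ac, with COL3A1, COL6A3, FAP and PDGFRB added for H3K27ac. No histone library allowed such a check for IMR90.

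In the counts of listed genes that follow, a shared mark is a region merged over the 4 libraries and called in at least 2, so that its edge at a start can come from fewer libraries. Over all protein-coding genes the shares were 66.6% for H3K4me3 and 58.7% for H3K27ac, as above. The α-globin genes encode the partner chains of haemoglobin. Of HBA1, HBA2, HBM, HBQ1 and HBZ only HBQ1, encoding a minor θ-like chain, had H3K4me3 at its start in at least 2 libraries, and none had H3K27ac. Within 5000 bp the H3K4me3 count was 3 of 5, with HBA1 and HBZ added, while over the β-globin genes it was 1 of 5, HBG1.

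Of 17 regulators of the globin genes 11 had shared H3K4me3, a share close to that of all genes, and 6 had shared H3K27ac. LDB1, the adaptor that joins LCR and gene, ZBTB7A, a repressor of the γ genes, NR2C2, an orphan nuclear receptor, CHD4, a remodelling ATPase, and MBD2, a methyl-DNA binding protein, had both, in all 8 libraries except for ZBTB7A, whose H3K27ac was called in the 2 CTCF siRNA libraries but in no control. The γ-globin repressor BCL11A had H3K4me3 alone, in all 4 libraries, as did NFE2, which binds the LCR, MYB and NR2C1. GFI1B, an erythroid repressor, had H3K4me3 in the 2 CTCF siRNA libraries but in no control, and KLF1, the erythroid activator of HBB, had it at the start in control library 2 only. With 2 against 2 libraries these differences cannot go below p = 0.33 by the exact permutation test. The share of all genes with such a pattern was not counted, and both H3K27ac lists after CTCF siRNA were longer than both control lists. SOX6, another γ-gene repressor, had H3K27ac alone, at its start in CTCF siRNA library 1 only. GATA1 and TAL1, master factors of the erythroid lineage, had neither at the canonical start, nor had LMO2, LIN28B and IKZF1. Within 5000 bp of the start TAL1 gained both marks, SOX6 gained H3K4me3 and KLF1 gained H3K27ac. Over the starts of all transcripts SOX6, LMO2 and LIN28B gained H3K4me3, and NR2C1 and GFI1B gained H3K27ac. GATA1 and IKZF1 gained neither mark in either way.

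Among 14 erythroid genes 4 had shared H3K4me3 and 3 shared H3K27ac. TFRC, the transferrin receptor used by all dividing cells, and EPOR, the erythropoietin receptor, had both in all 8 libraries, and SPTB, a spectrin, had H3K4me3 alone in all 4. SLC4A1, the band 3 anion exchanger, had H3K27ac in all 4 libraries and H3K4me3 at its start in CTCF siRNA library 2 only. The other 10, including ALAS2, the first enzyme of erythroid haem synthesis, and AHSP, the α-chain chaperone, had no shared mark at the canonical start. Over the starts of all transcripts ANK1 and CA1 gained both marks and SPTB gained H3K27ac. The counts were then 6 of 14 for H3K4me3 and 6 of 14 for H3K27ac. Of the 12 erythroid markers, 8 of which are also in that list, 2 had H3K4me3 and 1 had H3K27ac. Between control and CTCF siRNA the count of β-globin genes with a mark was 0 of 5 in every library. The count of erythroid genes with H3K4me3 was 3 and 3 in controls and 3 and 5 after CTCF siRNA, the 2 added being SLC4A1 and AHSP in CTCF siRNA library 2, whose list of 59920 H3K4me3 regions was the longest of the 4.

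**Figure D5:**
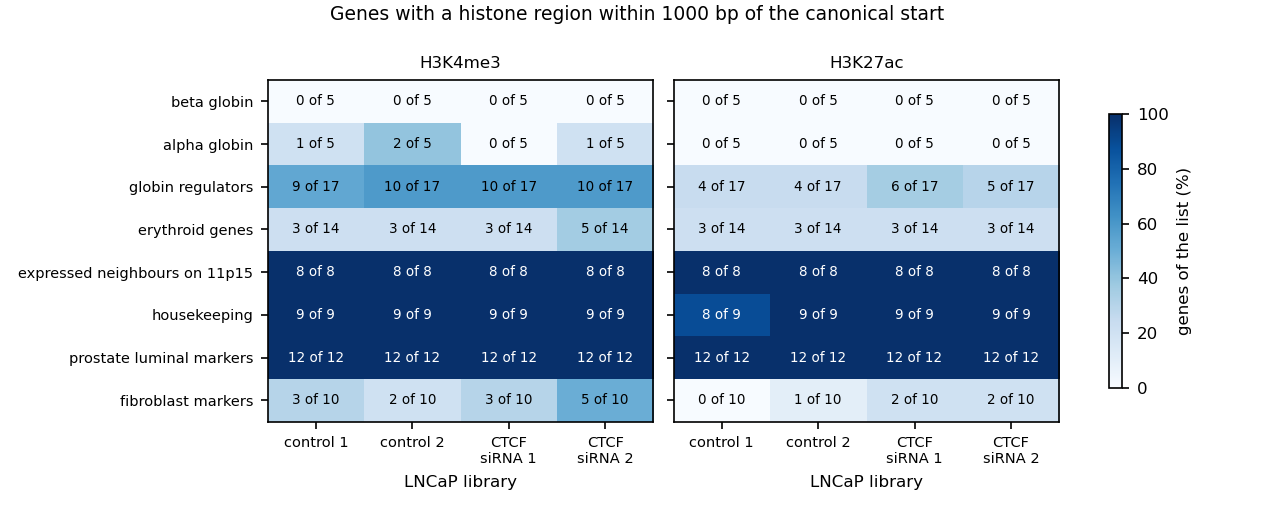
Number of genes in each list with a histone region within 1000 bp of the canonical start, in each LNCaP library, for H3K4me3 and H3K27ac. Shading gives the percent of the list. The 5 β-globin genes were at 0 in all 8 libraries, while the 8 genes chosen as expressed on 11p15 and the 12 prostate luminal markers were complete.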

How the data were processed

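Only the deposited lists were used. Reads had been mapped to hg19 by the authors, using Bowtie for the standard libraries (ambiguous and clonal reads discarded) and BWA for the low-cell ones, and each library was called on its own, with MACS2 for CTCF and PeakRanger for the histone marks. The deposited CTCF lists of the authors give fold enrichment, a ratio of ChIP signal over nearby background with no scaling across libraries, and p-values and q-values as −log10. The deposited histone lists carry a score from 0.001 to 0.106 whose meaning the authors' lists do not give, used here only to shorten lists. Lower scores went with wider regions in every histone list, with Spearman correlations of score and width from -0.93 to -0.82.

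Autosomal and X and Y peaks sharing at least 1 bp were merged into sites, with starts counted from 1. A control site needed a peak in each control library of its experiment. Histone regions were kept when called in at least 2 of 4 libraries, and a mark was counted at a gene within 1000 bp of the start of its canonical transcript (GENCODE 44, hg19). All 5 globin genes, every site and region of the interval, the adjoining olfactory receptor genes and the genes of the lists were to be named, of which the text gives those that the counts turn on. The members and lists were chosen with earlier results of these data known. Presence of a peak at a site was tested by a two-sided exact permutation test with labels permuted within experiment, run on all sites called in at least 2 of 12 CTCF libraries and adjusted by Benjamini-Hochberg. Site building and the test were checked on simulated data. Genome tiles of 250 kb with over 50% unknown bases were left out. Unique 50-base words were counted as exact matches over both strands of the reference. The authors' Bowtie mapping allowed mismatches, and the low-cell reads were longer than these words. Python 3.11.15, numpy 2.4.6, scipy 1.17.1, pysam 0.24.0 and matplotlib 3.10.9 were used.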

Additional observations from a re-analysis of the deposited data

How the results depend on the processing

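Of 179 alternative values for 32 results, 156 were counted as the same. For counts this meant equal to the value given or within 1.5 times of it. For the exact permutation test at a site it meant only that control libraries still had more calls, whatever the p. For the share of strong IMR90 sites missing after CTCF siRNA it meant lying inside its confidence interval. For the values below the cause was not tested beyond the fewer peaks, regions or libraries that an alternative leaves. Lists of equal length left 0 control sites of the interval in LNCaP and 0 with the low-cell kit, and 1 kept site in standard IMR90 in place of 2. The exact permutation test at the 3′ site then turned in direction (p = 0.33), and that at the OR51 site lost its direction. Counting a peak in either library gave 4 LNCaP control sites. Leaving out 1 library at a time gave 2 to 3 control sites in LNCaP, 3 to 4 in standard IMR90 and 2 to 3 with the low-cell kit, and 0, 2 and 0 kept sites.

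H3K4me3 regions of the interval numbered 3 when called in at least 1 library, 0 when each list was cut to its lowest-scoring 50% and 2 with the interval widened by 50 kb. Lower scores went with wider regions, so the lowest-scoring 50% held mostly the wider regions of a list. H3K27ac regions numbered 2 when called in at least 1 library, 0 when called in at least 3 or in 4, and 0 in the lowest-scoring 50%. Without 1 library at a time the count was 1 for H3K4me3 and 0 to 1 for H3K27ac. Within 5000 bp of the start, 1 β-globin gene had H3K4me3. The consensus motif was found at all 3 sites within 50 bp of the summit, and at 2 with up to 1 mismatch.

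The correlation of replicate differences in fold enrichment at persistent sites was 0.30 in LNCaP, −0.01 in IMR90 and 0.07 with the low-cell kit. It was above 0.1 in 1 of 3 experiments, so the replicate numbers were not taken to pair the libraries. With the replicate block, p by the exact permutation test was 0.13 at the 3′ site, 0.063 at the 5′ site and 0.25 at the OR51 site. That 0 sites passed decides nothing, because the smallest p of this block was 0.031. Ranking by −log10 q and matching within 10% of fold enrichment were chosen after seeing the data. Peak lists set the precision here: presence or absence in 2 lists per group, no reads at missing peaks, and lists of unequal length.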

Other observations

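Of the CTCF peaks of the interval, 2 were called in a single library each. One, of fold enrichment 3.71 in LNCaP control library 1, lay 6861 bp from the start of OR51B2 and stood above 0.81% of that list. The other, of 7.21 in IMR90 control library 1, lay 14971 bp from the start of OR51B6 and 3596 bp from the OR51 site, and 75.9% of its 50-base words were unique.

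H3K4me3 regions called once were a region of 800 bp at the 3′ end of HBG2 in control library 2, chr11:5273651-5274450, and a region of 800 bp near OR52A1 in CTCF siRNA library 2, chr11:5166051-5166850, with a GC content of 51.6%, 23 CpG dinucleotides and 65.9% of its 50-base words unique.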
